A study of Mus musculus with 18 samples.

Results

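Lungs of A/J and C57BL/6 mice were compared after ovalbumin challenge. All 3 A/J and all 3 C57BL/6 arrays whose labels name a whole lung challenged with ovalbumin were taken, 6 of the 18 arrays in the study. A/J and C57BL/6 are inbred laboratory strains, and A/J is widely used as a strain prone to airway hyperresponsiveness. The mice were males aged 16 weeks that had received 3 weekly intraperitoneal injections of 100 µg ovalbumin, a chicken egg protein, with 37.5 µL alum as adjuvant. Starting 7 days after the last injection they breathed a 1% ovalbumin aerosol for 30 min on each of 3 days. The other 12 arrays, again 3 per strain and treatment, came from equally sensitized mice that breathed PBS in place of ovalbumin, or that received 100 µg resiquimod, an agonist of Toll-like receptor 7 in mice, 24 h before each ovalbumin challenge. No unsensitized mice were included, so every group shares the ovalbumin and alum injections, and the labels name no C57BL/6 substrain. Each array holds the RNA of 1 mouse. The deposited values are log2 expression values from Affymetrix arrays, and every difference below is A/J minus C57BL/6 in log2 units, so that 1 unit is a 2-fold difference. With 3 mice a group, the number of arrays limits the precision.

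In sensitized mice, inhaled allergen activates T helper type 2 cells and innate lymphoid cells, whose interleukins 4, 5 and 13 act on the airway through Stat6. Interleukin 13 turns airway epithelium towards goblet cells that secrete mucins and accessory proteins, interleukin 5 sustains eosinophils, and the eotaxins Ccl11 and Ccl24 draw eosinophils into tissue through the receptor Ccr3. Macrophages exposed to interleukins 4 and 13 take on an alternatively activated state marked by chitinase-like and resistin-like proteins and C-type lectins. Strains of mice differ in how strongly these arms respond, and they also differ in germline variants that alter transcripts whether or not the lung is inflamed.

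The makeup of the 6 lungs was checked first. The mean of 6 lung genes of alveolar, club, ciliated and endothelial cells (Sftpc, Sftpa1, Ager, Scgb1a1, Foxj1 and Cdh5) was 11.54 to 11.64 in A/J and 11.53 to 11.76 in C57BL/6 arrays, so both strains carried the labelled tissue. The mean of 9 keratinocyte-type squamous epithelium genes was 7.74, 4.09 and 7.36 in the A/J arrays, against 8.65, 3.93 and 3.93 in the C57BL/6 arrays. Skeletal muscle genes moved with them, at 9.78, 5.20 and 8.42 in A/J against 9.26, 4.83 and 4.79 in C57BL/6. Thus A/J replicates 1 and 3 and C57BL/6 replicate 1 hold transcripts of squamous mucosa and skeletal muscle, tissues that are not part of the lung parenchyma. In all, 8 of the 18 arrays hold them. Their part in the strain differences was examined by a fit without these 8 arrays. That fit leaves 1 A/J and 2 C57BL/6 ovalbumin arrays and assumes that the lone A/J array varies like the other groups. A call lost there can come from the smaller number of arrays as well as from the squamous transcripts. A fit with the squamous marker mean as a covariate, which keeps all 18 arrays, is given under the dependence on processing. The PBS comparison has its own limit: on a few genes, described at the end, the C57BL/6 PBS arrays stand apart from the other C57BL/6 arrays.

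After ovalbumin, 1686 of 18193 genes differed between A/J and C57BL/6 at a Benjamini-Hochberg adjusted p under 0.05 in limma, a linear model fitted to all probe sets with a spread shared between genes. That is 9.27% of the genes, with 780 higher in A/J (4.29%) and 906 lower (4.98%). A gene is called below when it passed this threshold. Counts of called list members below are to be read against these shares of all genes. The lists were chosen with earlier results of these data known. At the level of probe sets, the call was made for 3984 of 45037 (8.85%), with 8976 at an unadjusted p under 0.05. Differences of at least 1 log2 unit were found for 97 genes higher and 120 genes lower in A/J, while the median over all genes was 0.00. In 1671 of the 1686 called genes the 3 A/J arrays lay wholly above or below the 3 C57BL/6 arrays, a separation that 24.6% of all genes showed. The genes were called on these same arrays, so the separation describes them and is no independent support. All 1686 kept their direction without the arrays that hold squamous transcripts, and 473 kept their call there. Leaving out 1 of the 6 arrays at a time kept between 1235 and 1324 of the calls, and 980 held in every such fit.

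Much of the strain difference was present in other mice that had not inhaled ovalbumin. Of the 1686 genes, 1040 (61.7%) were called in the same direction after PBS, against a background of 9.01% of all genes called (4.46% higher, 4.56% lower in A/J), and Wfdc17 alone was called in the opposite direction. After resiquimod and ovalbumin 1011 were called in the same direction and 12 in the opposite one, where 16.5% of all genes were called (7.54% higher, 8.92% lower). The 3 strain comparisons share no array, only the estimate of the spread. In both other treatments together 815 genes (48.3%) recurred. Among the 217 genes that differed by at least 1 log2 unit after ovalbumin, 188 (86.6%) recurred after PBS and 192 after resiquimod. The remaining 645 genes were not called after PBS, but that alone does not show that the strain difference depended on ovalbumin. The test of that dependence, the strain difference after ovalbumin minus that after PBS, called 11 genes (0.0605%), of which 6 are among the 1686.

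**Figure D1:**
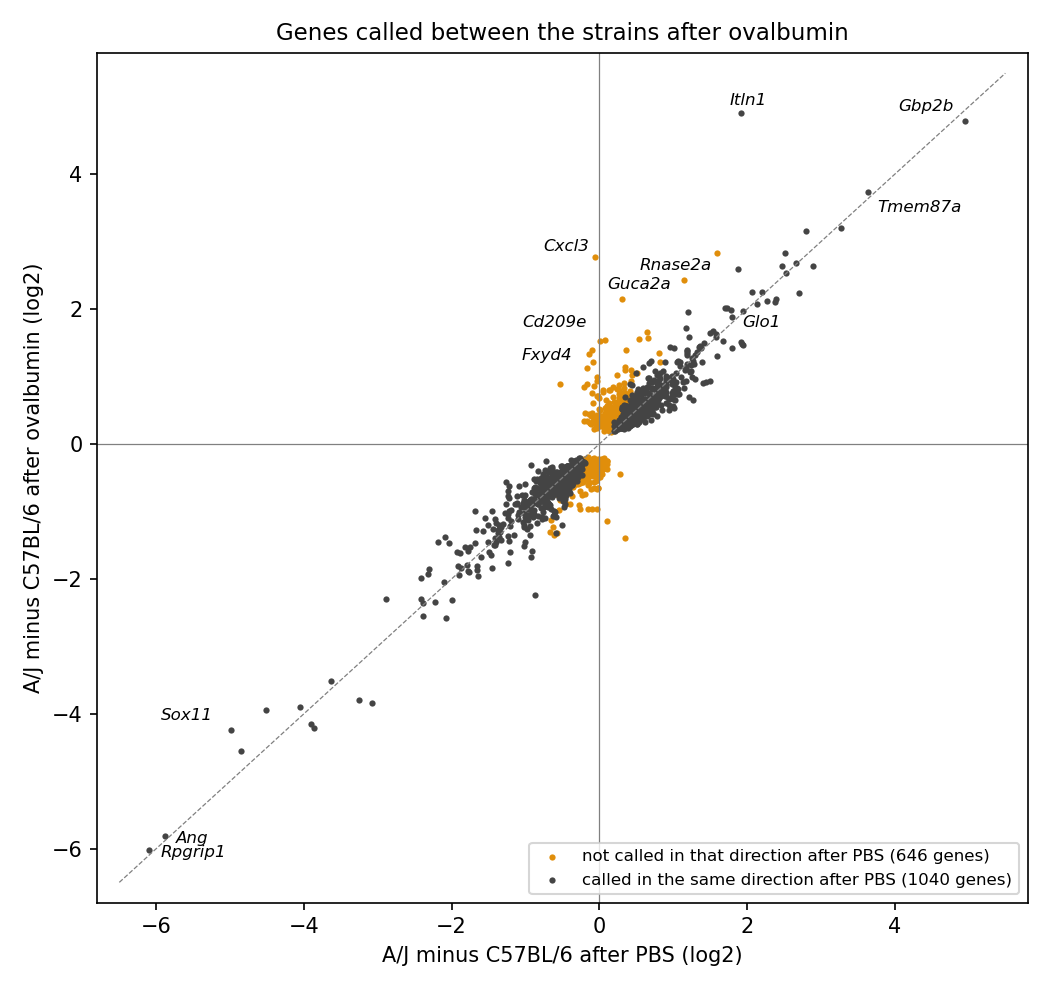
Each point is 1 of the 1686 genes called between the strains after ovalbumin, with the A/J minus C57BL/6 difference after PBS on the x axis and after ovalbumin on the y axis, both in log2 units from 3 arrays per group. Dark points (1040 genes) were also called in the same direction after PBS and orange points were not; most lie near the diagonal of equal differences, while Itln1, Guca2a, Cxcl3 and Cd209e lie well above it.

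Goblet cell genes were higher in A/J lungs. Of 24 measured genes of mucus and goblet cells, 8 were called higher and none lower, against 4.29% and 4.98% of all genes. Their median difference was 0.24 against 0.00 for all genes, and 20 of the 24 were above 0. The leading gene was Itln1, which encodes the secreted lectin intelectin 1. It read 9.65, 9.29 and 9.52 in A/J lungs, against 4.55, 4.36 and 4.84 in C57BL/6 lungs, a difference of 4.90 ± 0.20 (SE), 29.9-fold, with an adjusted p of 3.96e-11. All A/J arrays were far above all C57BL/6 arrays. After PBS Itln1 was also higher in A/J, at 5.68, 6.01 and 5.49 against 3.79, 3.80 and 3.83 in C57BL/6, a difference of 1.92. The strain difference after ovalbumin exceeded that after PBS by 2.98 (adjusted p = 0.00013), a call lost without the arrays that hold squamous transcripts (2.74, adjusted p = 0.578). Some mouse strains are known to carry intelectin gene copies that C57BL/6 lacks, and whether this probe set registers such copies was not tested.

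Guca2a, which encodes the gut peptide hormone guanylin, read 6.11, 6.21 and 6.27 in A/J lungs against 4.09, 4.17 and 3.91 in C57BL/6 lungs after ovalbumin (2.14 ± 0.15, adjusted p = 2.87e-08). After PBS the strains overlapped, at 4.28, 4.25 and 4.79 in A/J against 3.98, 4.44 and 3.99 in C57BL/6, and the C57BL/6 ovalbumin arrays were close to those values. The difference between the strain differences was 1.84 (adjusted p = 0.00058), a call also lost without the arrays that hold squamous transcripts (2.09, adjusted p = 0.29). After resiquimod and ovalbumin the strains differed by only 0.08, and the ovalbumin difference exceeded that by 2.06 (adjusted p = 0.00015). Of the 18 arrays, the 3 of A/J after ovalbumin were the highest for Guca2a, and the next was A/J PBS replicate 3 at 4.79.

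Slc26a4, the anion exchanger pendrin that interleukin 13 raises in airway epithelium, read 10.22, 10.20 and 10.42 in A/J lungs against 8.22, 9.20 and 9.09 in C57BL/6 lungs (1.44 ± 0.21, adjusted p = 0.000139). Agr2, a disulfide isomerase needed to fold mucins, read 7.85, 7.74 and 8.16 in A/J against 6.77, 7.06 and 6.87 in C57BL/6 (1.01 ± 0.29, adjusted p = 0.0346). Neither pair of groups overlapped. The strain difference after PBS was 0.95 for Slc26a4 and 0.98 for Agr2, both called. The other called members were Pigr, the receptor that carries immunoglobulin A across epithelium (0.54), Foxa3 (0.43) and Spdef (0.41), transcription factors of goblet cell differentiation, and Galnt7, an enzyme that starts mucin-type glycans (0.30).

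The mucins themselves were not called. Muc5ac, the mucin of goblet cell metaplasia, read 7.64, 7.50 and 7.68 in A/J against 7.48, 7.75 and 7.58 in C57BL/6, a difference of 0.00 ± 0.24 (adjusted p = 0.995). Muc5b, the other gel-forming airway mucin, differed by -0.18 (adjusted p = 0.651). Clca1, a secreted metalloprotease of goblet cells, read 12.87, 12.95 and 12.83 in A/J against 12.56, 12.62 and 12.68 in C57BL/6. These groups did not overlap, but the difference of 0.26 had an adjusted p of 0.836. Its SE of 0.48 drew on all 6 groups, while the SD within each ovalbumin group was 0.06. The missing call therefore does not show that the strains were alike. A second Clca1 probe set gave 0.65 with an adjusted p of 0.0469. Itln1, Guca2a and Slc26a4 kept their calls between the strains after ovalbumin with any 1 of the 6 arrays left out and without the arrays that hold squamous transcripts. Agr2 lost its call with each of the 6 left out in turn (differences of 0.89 to 1.10), and Pigr, Foxa3, Spdef and Galnt7 each lost it in 4 of the 6. With only the 6 arrays compared in the limma fit, Agr2 had an adjusted p of 0.0027. Without the arrays that hold squamous transcripts 4 members of the list were called higher, Itln1, Guca2a and Slc26a4 among them.

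**Figure D2:**
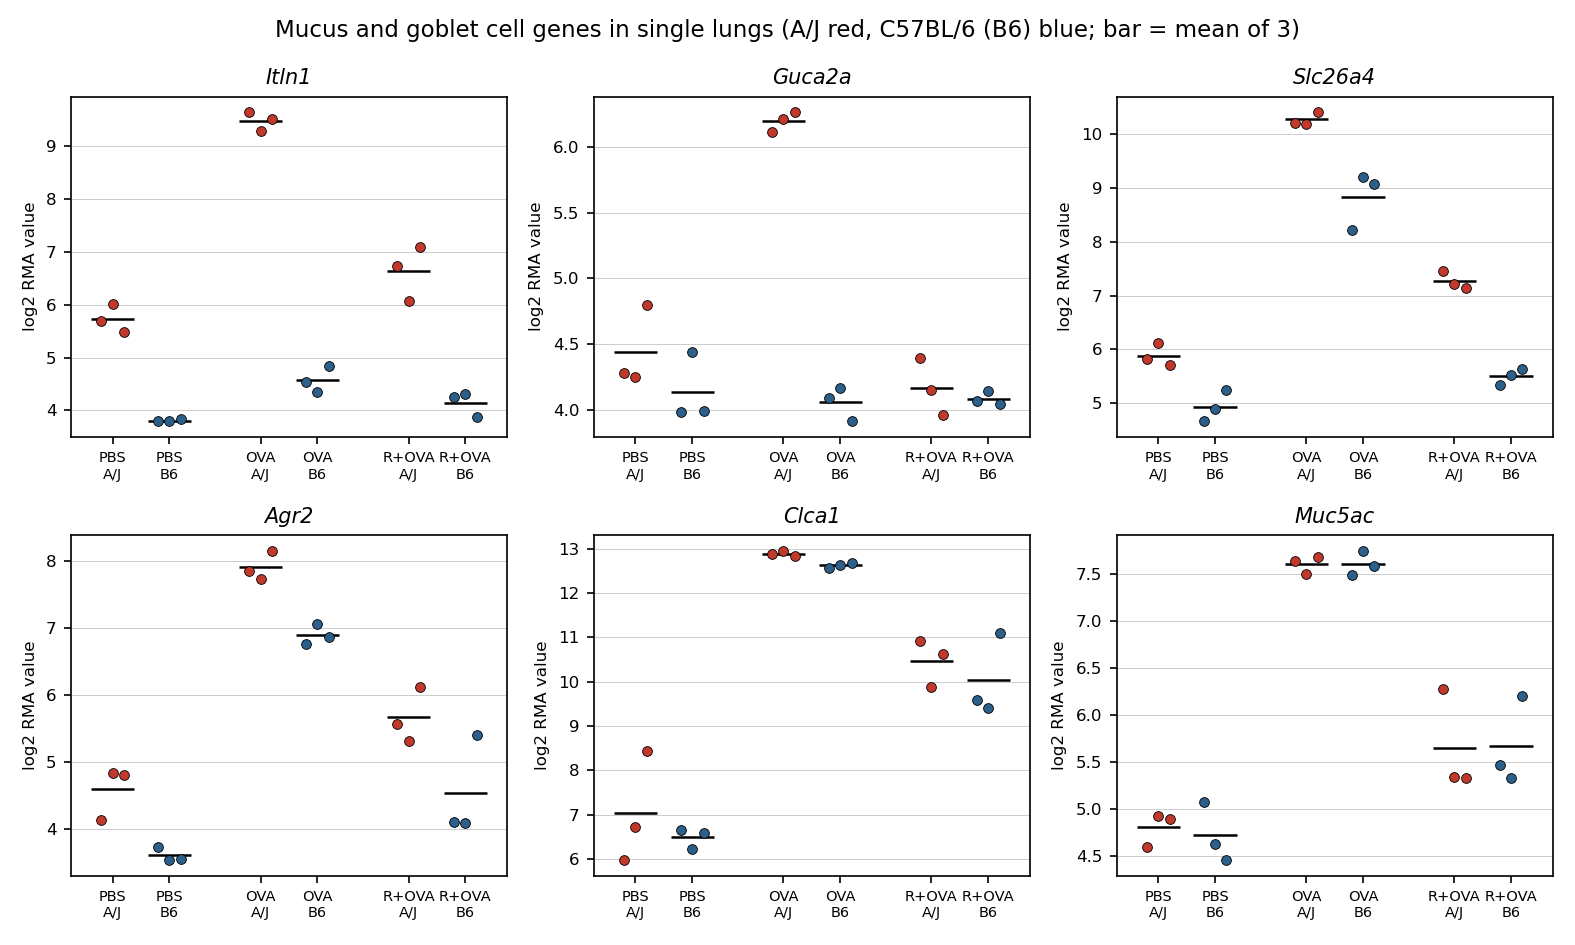
Log2 RMA values of Itln1, Guca2a, Slc26a4, Agr2, Clca1 and Muc5ac in all 18 lungs, with A/J in red and C57BL/6 (B6) in blue; PBS, OVA and R+OVA stand for PBS, ovalbumin, and resiquimod with ovalbumin, each point is 1 array and each bar the mean of 3. In the ovalbumin lungs the A/J points for Itln1 (9.29 to 9.65) and Guca2a (6.11 to 6.27) lie above all C57BL/6 points, while those for Muc5ac overlap.

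Eosinophil genes were also higher in A/J. Of 14 measured members of an eosinophil list, 8 were called higher and none lower, against 4.29% and 4.98% of all genes. The median of 0.62 was the highest of the 38 lists apart from the skeletal muscle list. That rank is limited by the choice of lists with earlier results known. No member of this list was called in either direction after PBS. Ccl11, eotaxin 1, read 8.56, 8.40 and 8.68 in A/J lungs against 6.79, 7.59 and 7.08 in C57BL/6 lungs, a difference of 1.40 ± 0.22, 2.63-fold (adjusted p = 0.000396). Ccl24, eotaxin 2, read 7.05, 7.54 and 7.62 in A/J against 6.32, 6.91 and 6.57 in C57BL/6 (0.80 ± 0.15, adjusted p = 0.00223). For both eotaxins every A/J array was above every C57BL/6 array, although A/J replicate 1 and C57BL/6 replicate 2 were close for Ccl24.

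Genes of the eosinophils themselves were called in the same direction. Prg2, the major basic protein of the granule, read 4.13, 4.19 and 4.28 in A/J against 2.91, 3.70 and 3.34 in C57BL/6 (0.89 ± 0.15, adjusted p = 0.000678). Epx, eosinophil peroxidase, read 3.51, 3.63 and 3.60 in A/J against 3.06, 3.18 and 3.03 in C57BL/6 (0.49 ± 0.08, adjusted p = 0.000767). Both sit near the bottom of the array's range, where 25% of all values are below 3.33, and their C57BL/6 ovalbumin values lay close to those of the PBS lungs. Siglecf, a sialic acid receptor of eosinophils and alveolar macrophages, read 6.42, 6.80 and 6.94 in A/J against 5.91, 5.92 and 5.61 in C57BL/6 (0.91, adjusted p = 0.00651).

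Csf2rb, a signalling chain of the interleukin 3, interleukin 5 and GM-CSF receptors, was higher by 0.75. Csf2rb2, a signalling chain of the interleukin 3 receptor, was higher by 1.15. It read 5.89, 5.93 and 6.42 in A/J against 4.70, 5.14 and 4.96 in C57BL/6. The 2 chains are near-identical paralogs, so their probe sets may share signal. Adgre1, the F4/80 antigen of macrophages and eosinophils, was higher by 0.47. Ccr3, the eotaxin receptor, and Il5ra, the ligand-binding chain for interleukin 5, differed by 0.22 and 0.08 and were not called. The mean of 4 defining eosinophil genes was 4.41, 4.46 and 4.57 in A/J against 3.75, 4.02 and 3.79 in C57BL/6. In RNA of whole lung, more cells of a type and more RNA per cell cannot be told apart.

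The eosinophil differences were less firm than those of Itln1 and Guca2a when arrays were removed. Between 7 and 9 members were called with 1 array left out, and Ccl11, Ccl24, Siglecf, Prg2, Epx, Csf2rb and Csf2rb2 kept their calls in all 6 such fits, while Adgre1 lost it in 4. Without the arrays that hold squamous transcripts the directions held and the list's median was 0.37, but Ccl24 alone was still called. There Ccl11 had an adjusted p of 0.0811, Epx 0.0504, Siglecf 0.143 and Prg2 0.169. No eosinophil gene passed the test of the ovalbumin against the PBS strain difference: that difference was 1.03 for Ccl11 (adjusted p = 0.66) and 1.05 for Prg2 (adjusted p = 0.13).

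The cytokines that drive these responses showed no called difference. Il4 differed by 0.23, Il5 by 0.07 and Il13 by 0.15, with adjusted p of 0.278, 0.732 and 0.516, and all read between 3.07 and 4.00 in the 6 lungs, in the low part of the array's range. Of 26 measured type 2 cytokine and receptor genes, Csf2rb2, Csf2rb and Csf2ra (0.43), the alpha chain of the GM-CSF receptor, were called higher. Gata3, the transcription factor of type 2 lymphocytes, was called lower at -0.70. Its values were 5.37, 5.48 and 5.10 in A/J against 5.91, 6.25 and 5.89 in C57BL/6, and it was called in the same direction after PBS (-0.56). Without the arrays that hold squamous transcripts, which leaves 1 A/J array, the differences were 0.88 for Csf2rb2, 0.73 for Csf2rb, 0.38 for Csf2ra and -0.58 for Gata3. Among 12 alarmin genes, which epithelium uses to start type 2 responses, none was called in limma, and Il33 differed by 0.30 (adjusted p = 0.374). None of 15 mast cell and basophil genes was called.

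Of 19 measured genes of alternatively activated macrophages, 6 were called higher in A/J and none lower, against 4.29% and 4.98% of all genes. Their median was 0.30. Ccl24 is among the called genes of this list and of the eosinophil list. Rnase2a, an eosinophil-associated ribonuclease of the RNase A family, read 10.39, 9.99 and 10.31 in A/J against 7.25, 8.45 and 7.72 in C57BL/6, a difference of 2.43 ± 0.38, 5.37-fold (adjusted p = 0.000335). Cd209e, a C-type lectin of the DC-SIGN family, read 6.44, 6.28 and 6.70 in A/J against 4.41, 5.50 and 4.91 in C57BL/6 (1.53 ± 0.21, adjusted p = 9.18e-05). In the PBS lungs of both strains Cd209e lay between 2.47 and 3.19. Il1rn, the interleukin 1 receptor antagonist, was higher by 0.85, and Mrc1, the mannose receptor, by 0.66. Ccl24 and Fn1, fibronectin (0.46), complete the called members.

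The most familiar markers of that state were not called. Chil3, the chitinase-like protein Ym1, read 12.28, 12.29 and 12.42 in A/J against 12.28, 12.53 and 12.48 in C57BL/6 (-0.10, adjusted p = 0.701). Retnla, which encodes Fizz1, differed by 0.22 and Chil4, the related Ym2, by -0.01. Arg1, arginase 1, was spread widely, at 7.39, 5.95 and 6.86 in A/J against 7.46, 7.94 and 7.44 in C57BL/6, and was not called (-0.88, adjusted p = 0.588). Without the arrays that hold squamous transcripts, Ccl24 was the 1 member called, and Rnase2a (1.91, adjusted p = 0.172), Cd209e (1.07, adjusted p = 0.0811) and Il1rn (0.54, adjusted p = 0.314) were not.

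Promoters of these genes were read for the sites of Stat factors, since Stat6 carries the interleukin 4 and 13 signal and Stat5 that of the GM-CSF receptor family. The windows run from 250 bases before to 50 after the gene start and come from RefSeq on GRCm38.p6, which is the C57BL/6J genome, so strain variants are not shown. The motifs searched were TTCNNNNGAA, the spacing favoured by Stat6, and TTCNNNGAA, the general Stat spacing, each of which reads the same on both strands. Of the 21 called genes of the goblet cell, eosinophil and alternatively activated macrophage lists, 15 had a promoter entry. Among them 3 held TTCNNNNGAA (Cd209e, Epx and Il1rn) and 2 held TTCNNNGAA (Csf2rb2 and Pigr), while 6.95% and 8.3% of 32851 promoters held these motifs. The first counts are of genes and the shares are of promoters, so they cannot be compared directly. Il1rn has more than 1 promoter entry, and its match is a single site in overlapping windows. A match is a run of letters and not a measured site. Itln1 is shown as the gene with the largest A/J excess and holds neither. Cd209e, Epx and Csf2rb2 are shown with the match in capitals, starting at -79, -5 and -15 from the gene start.
Itln1 chr1:171535245-171535544, minus strand: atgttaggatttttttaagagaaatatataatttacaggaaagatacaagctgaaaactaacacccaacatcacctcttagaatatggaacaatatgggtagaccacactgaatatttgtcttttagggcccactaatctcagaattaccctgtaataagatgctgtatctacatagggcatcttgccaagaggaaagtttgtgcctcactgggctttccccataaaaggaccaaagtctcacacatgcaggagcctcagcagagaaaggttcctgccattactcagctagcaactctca
Cd209e chr8:3854237-3854536, minus strand: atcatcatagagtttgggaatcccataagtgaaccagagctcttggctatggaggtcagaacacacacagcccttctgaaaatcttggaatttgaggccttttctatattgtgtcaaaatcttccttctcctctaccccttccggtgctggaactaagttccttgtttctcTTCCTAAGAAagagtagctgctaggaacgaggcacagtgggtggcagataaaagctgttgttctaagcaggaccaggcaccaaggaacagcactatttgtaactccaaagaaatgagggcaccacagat
Epx chr11:87875487-87875786, minus strand: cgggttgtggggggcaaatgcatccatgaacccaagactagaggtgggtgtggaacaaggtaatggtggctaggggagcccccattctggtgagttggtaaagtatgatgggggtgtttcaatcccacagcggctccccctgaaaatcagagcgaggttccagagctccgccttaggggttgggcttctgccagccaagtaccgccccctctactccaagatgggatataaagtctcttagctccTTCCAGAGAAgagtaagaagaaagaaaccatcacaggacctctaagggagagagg
Csf2rb2 chr15:78305672-78305971, minus strand: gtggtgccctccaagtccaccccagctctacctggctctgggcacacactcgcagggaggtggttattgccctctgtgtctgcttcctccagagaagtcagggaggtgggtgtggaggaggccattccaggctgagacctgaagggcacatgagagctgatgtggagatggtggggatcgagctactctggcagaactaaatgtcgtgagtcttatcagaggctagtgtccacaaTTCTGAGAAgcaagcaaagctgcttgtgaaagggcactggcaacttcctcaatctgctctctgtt

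Of 33 measured macrophage and monocyte genes, 9 were called higher and 2 lower in A/J, with 18 of the 33 above 0 and a median of 0.12. Marco, a scavenger receptor that binds bacteria and particles, read 7.18, 7.77 and 7.44 in A/J against 6.17, 5.42 and 6.08 in C57BL/6 (1.57 ± 0.24, adjusted p = 0.000327). Ctsk, the collagen-degrading protease cathepsin K, read 8.95, 8.91 and 9.21 in A/J against 7.48, 7.52 and 7.39 in C57BL/6 (1.56 ± 0.18, adjusted p = 1.75e-05). The A/J arrays were above all C57BL/6 arrays for both genes. Gpnmb, a glycoprotein of lipid-laden macrophages, was higher by 1.14, Cd68, a lysosomal marker, by 0.83, and Itgax, the CD11c integrin, by 0.81. Ctss, Fcgr3, Car4 and Adgre1 were also called higher, and Car4 is a member of the endothelial list as well.

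Cx3cr1, the fractalkine receptor of patrolling monocytes, read 5.34, 5.19 and 4.78 in A/J against 6.07, 5.98 and 6.13 in C57BL/6 (-0.96, adjusted p = 0.000106). A second Cx3cr1 probe set, with a mean of 3.35 in both strains, differed by 0.00 and was not called. After resiquimod and ovalbumin this second probe set averaged 4.46 in A/J and 4.39 in C57BL/6 (0.07), where the first differed by -0.93. Cd14, the lipopolysaccharide coreceptor, was the other gene called lower (-0.39), a call lost in 4 of the 6 fits with 1 array left out. Siglecf, Marco, Car4 and Chil3 are the defining genes of alveolar macrophages, which also express Itgax and Cd68. The first 3 of these 4 were called higher and Chil3 was not (-0.10), so the set gives no measure of these cells apart from the genes already described, and the part of their number in the differences was not tested. Without the arrays that hold squamous transcripts, 6 genes were called higher (Marco, Ctsk, Gpnmb, Cd68, Itgax and Ctss) and Cx3cr1 was called lower.

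Chemokines were called in both directions, 7 higher and 5 lower of 32 measured. Cxcl3, a ligand of the neutrophil receptor Cxcr2, read 5.33, 6.22 and 5.63 in A/J against 2.69, 3.13 and 3.06 in C57BL/6 (2.77 ± 0.45, adjusted p = 0.000489). The C57BL/6 values lie in the lowest 25% of all values, so the size of the difference there is uncertain. It was lower still in the PBS lungs of both strains, at 2.46, 2.45 and 2.38 in A/J against 2.65, 2.47 and 2.34 in C57BL/6. After resiquimod the strain difference was 4.88, and the ovalbumin against PBS test gave 2.83 with an adjusted p of 0.25. Cxcl3 was not called without the arrays that hold squamous transcripts (3.12, adjusted p = 0.0768). Ppbp, a platelet chemokine, read 6.72, 7.06 and 6.61 in A/J against 8.87, 8.51 and 8.62 in C57BL/6 (-1.87, adjusted p = 8.32e-07). Cxcl14, an epithelial chemokine, read 6.10, 6.17 and 6.23 in A/J against 7.34, 7.60 and 7.72 in C57BL/6 (-1.39, adjusted p = 0.00018).

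Ppbp and Cxcl14 were called in the same direction after PBS, and Cxcl3, Ccl11 and Ccl24 were not. The remaining called chemokines were Ccl6 (0.80), Cxcl9 (0.80), Cxcl12 (0.63) and Ccl9 (0.57), higher in A/J, and Ccl27a (-1.36), Ccl5 (-0.60) and Cx3cl1 (-0.45), lower. Cx3cl1 lost its call in 4 of the 6 fits with 1 array left out and Ccl5 in 3. In the fit without the squamous arrays 4 chemokines were called higher and 4 lower. The ligands of the Th2 receptor Ccr4 were not called: Ccl17 differed by -0.49 and Ccl22 by 0.31.

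**Figure D3:**
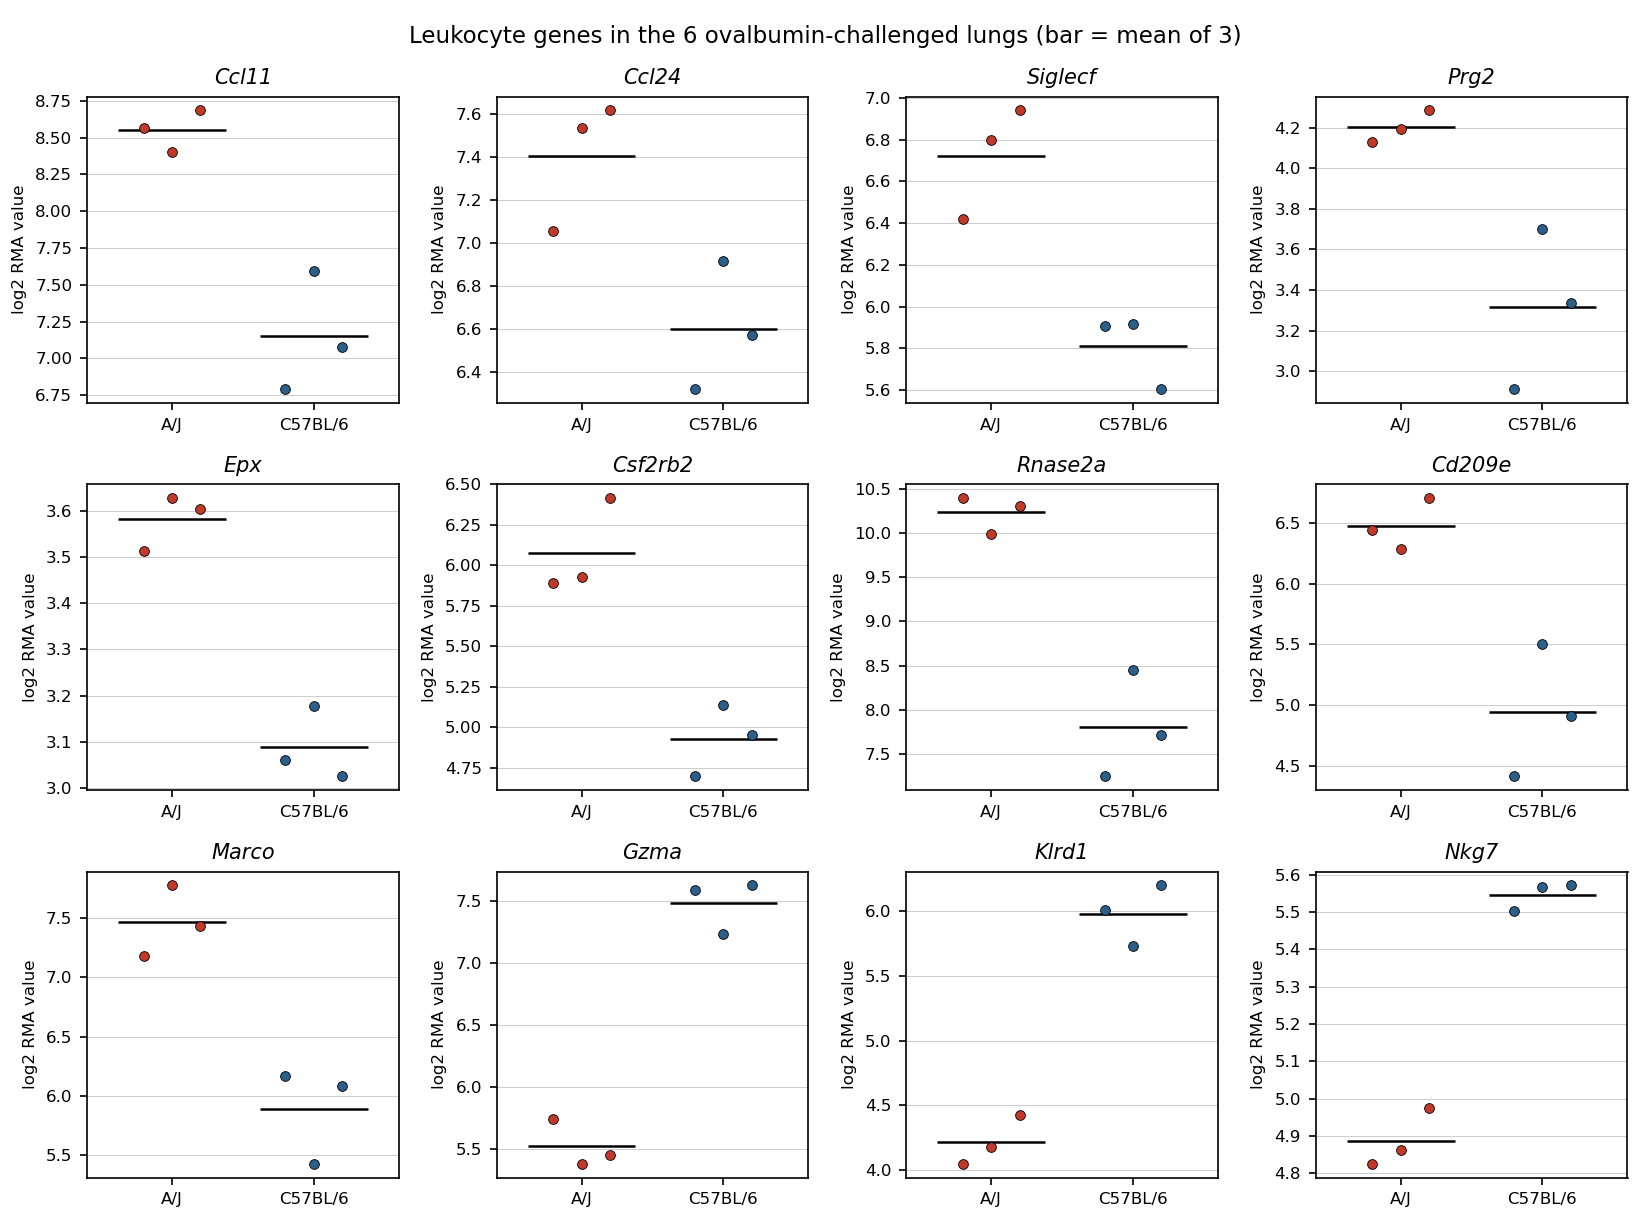
Log2 RMA values of 12 leukocyte genes in the 6 ovalbumin-challenged lungs, A/J in red on the left and C57BL/6 in blue on the right of each panel; each point is 1 array and each bar the mean of 3. Gzma, Klrd1 and Nkg7 lie lower in A/J and the other 9 genes higher, with no overlap between the strains.

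Natural killer and cytotoxic lymphocyte genes were lower in A/J lungs. Of 25 measured members 8 were called lower and none higher, against 4.98% and 4.29% of all genes, with a median of -0.20. Gzma, the granule protease granzyme A, read 5.74, 5.38 and 5.45 in A/J against 7.59, 7.23 and 7.63 in C57BL/6, a difference of -1.96 ± 0.13, 3.9-fold lower in A/J (adjusted p = 2.6e-08). Klrd1, the CD94 chain of natural killer receptors, read 4.05, 4.18 and 4.42 in A/J against 6.01, 5.73 and 6.20 in C57BL/6 (-1.77 ± 0.16, adjusted p = 8.86e-07). Nkg7, a granule membrane protein, read 4.83, 4.86 and 4.97 in A/J against 5.50, 5.57 and 5.57 in C57BL/6 (-0.66, adjusted p = 0.00722). In each of these genes all C57BL/6 arrays were above all A/J arrays.

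Klra8 and Klra7, receptors of the Ly49 family, whose gene content varies between mouse strains, were lower in A/J by -0.75 and -0.41, from values near the bottom of the range in both strains. After resiquimod the same 2 genes differed by -4.95 and -4.72. Klrk1 (-0.53), Gzmm (-0.43) and Ccl5 (-0.60) were the other called members. Prf1, Ncr1, Eomes and Tbx21, which encode perforin, an activating receptor and the lineage's transcription factors, were not called, at -0.10, 0.13, -0.07 and -0.02. Gzma and Klrd1 were called lower in A/J after PBS (-1.64 and -1.23) and after resiquimod (-1.59 and -1.71) too. Without the arrays that hold squamous transcripts Gzma, Klrd1 and Klra8 were still called, and Nkg7 was not (-0.71, adjusted p = 0.218). With 1 array left out, between 5 and 7 members were called, and Klrk1 and Gzmm each lost the call in 5 of the 6 fits and Ccl5 in 3.

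Other lymphocyte genes gave little. Of 22 measured T cell genes, Cd2 was called higher (0.51) and Thy1 lower (-0.50), a share near that of all genes called (9.27%). The median was -0.01. Cd2 lost its call in 4 and Thy1 in 3 of the 6 fits with 1 array left out, and neither was called without the arrays that hold squamous transcripts. None of 22 B cell and plasma cell genes was called. Igk, a probe set for the immunoglobulin kappa locus outside that list, read 10.23, 6.87 and 8.69 in A/J against 6.76, 5.28 and 5.23 in C57BL/6 (2.84 ± 0.71, adjusted p = 0.0159). The A/J arrays spread over more than 3 units, and the call was lost in 4 of the 6 fits with 1 array left out. The defining B cell genes averaged 7.90, 6.30 and 7.35 in A/J against 7.19, 6.71 and 6.83 in C57BL/6, so they overlapped.

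S100a8 and S100a9, the subunits of calprotectin, the main cytosolic protein of neutrophils, were lower in A/J. S100a8 read 8.32, 8.48 and 8.28 in A/J against 9.78, 10.17 and 9.18 in C57BL/6 (-1.35, adjusted p = 0.0325). S100a9 differed by -1.32 (adjusted p = 0.0495), and each lost its call in 5 of the 6 fits with 1 array left out. In a limma fit of only the 6 arrays compared, S100a8 and S100a9 had adjusted p of 0.0097 and 0.0064. Mmp9, the neutrophil gelatinase, read 4.97, 4.88 and 5.01 in A/J against 5.89, 5.96 and 5.69 in C57BL/6 (-0.89, adjusted p = 0.000865) and kept its call in those 6 fits. Fpr2, a formyl peptide receptor of neutrophils and macrophages, went the other way (1.72, adjusted p = 7.57e-06) and was higher in A/J after PBS too (1.18). The other 18 of the 22 measured neutrophil genes were not called, among them Csf3r (-0.46), Cxcr2 (-0.28) and Lcn2 (-0.35).

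**Figure D4:**
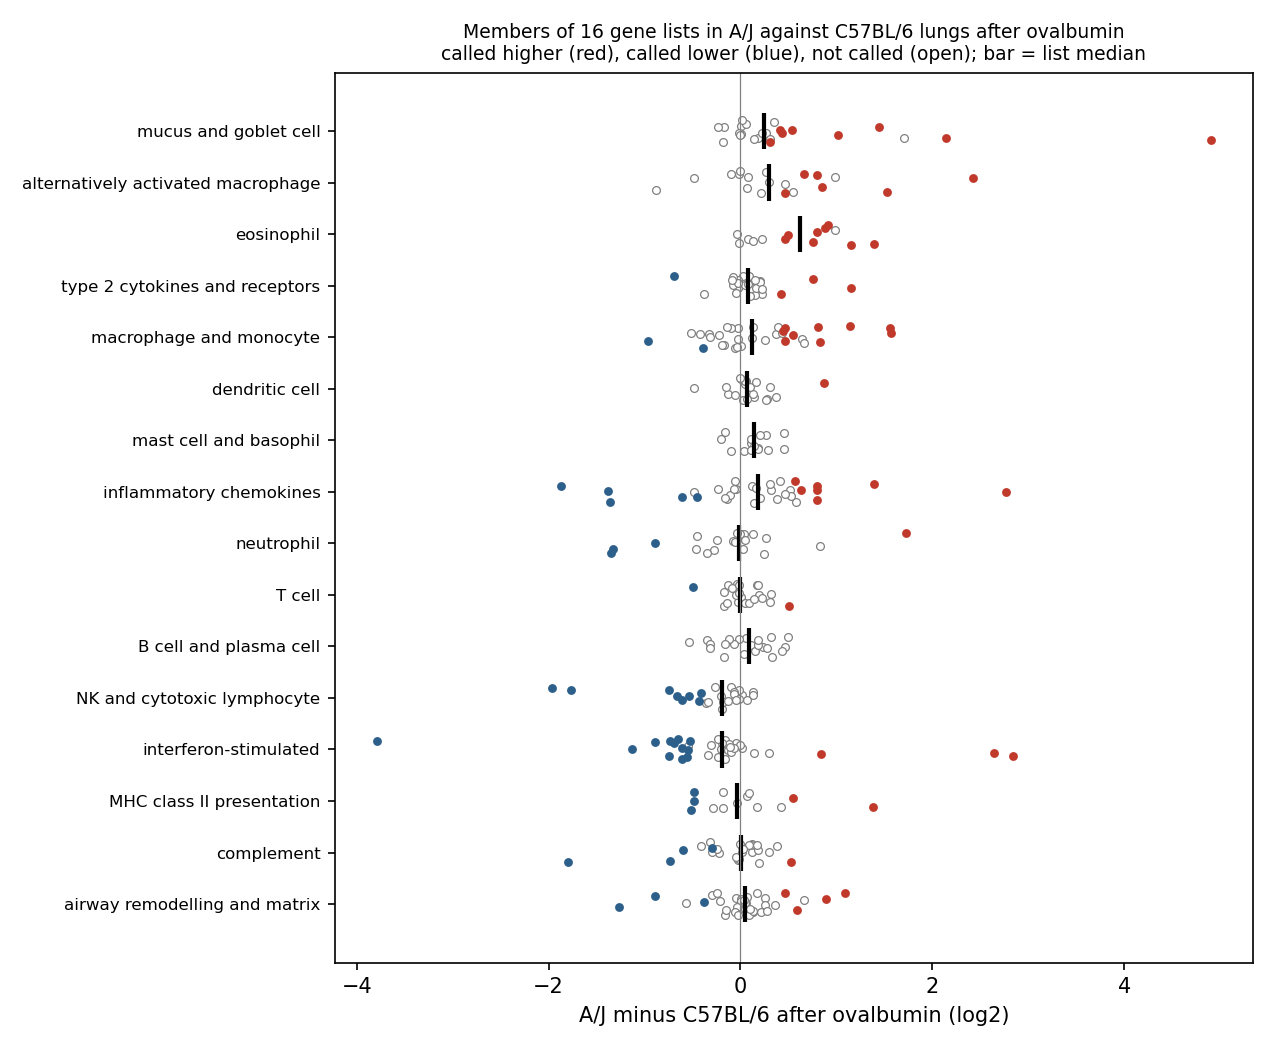
Each point is 1 measured member of a gene list, placed by its A/J minus C57BL/6 log2 difference after ovalbumin; filled red points were called higher and filled blue points lower in A/J at an adjusted p under 0.05, open points were not called, and the bar is the list's median. The goblet cell, alternatively activated macrophage and eosinophil lists have calls on the higher side only, the natural killer list on the lower side only, and most other lists centre on 0.

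Interferon-stimulated genes were lower in A/J, with 12 of 36 called lower, 3 higher and a median of -0.19. Of all genes 4.98% were called lower and 4.29% higher. The low ones include Ifi27l2a, read at 9.00, 8.50 and 8.52 in A/J against 10.11, 9.50 and 9.81 in C57BL/6 (-1.13, adjusted p = 0.00106), and the antiviral effectors Ifit3 (-0.74), Oasl2 (-0.73) and Ifit1 (-0.65). Irf7, the transcription factor that amplifies type I interferon, was lower by -0.69, and Rtp4, Usp18, Cmpk2 and Oas1a were lower too. After PBS 5 members were called lower and 3 higher, and after resiquimod 17 lower and 3 higher. No member passed the test of the ovalbumin against the PBS strain difference. With 1 array left out 12 or 13 were called lower, but only 5 without the arrays that hold squamous transcripts, where Ifi27l2a (adjusted p = 0.0498) and Ifit3 (adjusted p = 0.0447) were among them. Ifng itself read between 2.88 and 3.12 in all 6 lungs and differed by 0.01, and Cxcl10, an interferon-induced chemokine, differed by 0.53 (adjusted p = 0.306).

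The largest members of that list belong to loci at which the strains differ in all 3 treatments. Trim30d read 3.07, 3.42 and 2.88 in A/J against 6.76, 6.86 and 7.13 in C57BL/6 (-3.79). It lies in a run of 6 consecutive measured genes, each called: Trim34a (-4.22), Trim5 (-0.77), Trim12a (-4.15), Trim12c (0.40), Trim30a (-0.89) and Trim30d. This cluster encodes antiviral tripartite motif proteins. The second Trim34a probe set went the other way (1.25). Another run of 5 called genes holds the interferon-inducible Ifi200 family, with Ifi204 (2.64) and Ifi202b (2.84) higher and Mndal (-3.52), Ifi207 (-0.61) and Ifi203 (-0.54) lower in A/J. Ifi202b read 6.66, 6.16 and 6.58 in A/J against 3.56, 3.77 and 3.56 in C57BL/6, and 2.52 and 3.37 were its differences after PBS and after resiquimod.

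Antigen presentation genes were split. Of 13 MHC class II presentation genes 2 were called higher and 3 lower. H2-Ea, which the C57BL/6 haplotype is known not to express, read 7.47, 7.70 and 8.16 in A/J against 6.55, 6.58 and 6.06 in C57BL/6 (1.39, adjusted p = 5.84e-05). Ctss, the protease cathepsin S that trims the invariant chain, was higher by 0.54. H2-Eb1 (-0.51), H2-Ab1 (-0.48) and H2-DMa (-0.48) were lower, and Cd74 and Ciita, the invariant chain and the class II transactivator, differed by 0.08 and -0.04 and were not called. With 1 array left out H2-Ab1 lost its call in 4 and H2-DMa in 2 of the 6 fits, and without the arrays that hold squamous transcripts H2-Ea, Ctss and H2-Eb1 were still called while H2-Ab1 and H2-DMa were not. Among 18 class I and processing genes 2 were called higher and 5 lower, led by H2-T24 (-0.98) and H2-Q10 (-0.81), of which H2-Q10 lost its call in 2 of the 6 fits. Transcripts of the MHC region are highly polymorphic and have near-identical copies, so a probe set there may bind the 2 strains' transcripts unequally.

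Complement and pattern receptor genes differed in both directions, and among those named here Hc and Naip5 are given with a known A/J allele. Hc, which encodes complement C5 and carries a deletion in A/J, read 9.49, 9.58 and 9.51 in A/J against 11.31, 11.31 and 11.36 in C57BL/6 (-1.80 ± 0.08, 3.48-fold lower, adjusted p = 1.53e-10). Of 26 complement genes, C6 (-0.73), Clu (-0.60) and Serping1 (-0.30) were also lower, and Cd59a (0.53), a membrane inhibitor of the terminal complex, was higher, a call lost in 3 of the 6 fits with 1 array left out. Of 26 measured Toll-like receptor and innate sensor genes 3 were called higher and 4 lower, against 4.29% and 4.98% of all genes, with a median of -0.03. Naip5, the flagellin sensor whose A/J allele permits Legionella growth, read 4.04, 3.88 and 4.42 in A/J against 5.05, 5.26 and 4.81 in C57BL/6 (-0.93). Ly96 (-0.38) and Naip2 (-0.33) were also called lower, each losing its call in 4 of the 6 fits with 1 array left out. Tlr4, the lipopolysaccharide receptor, read 6.88, 6.97 and 7.30 in A/J against 6.18, 6.33 and 6.44 in C57BL/6 (0.73, adjusted p = 0.000251). Tlr6 (0.67) and Tlr2 (0.66), partners in sensing lipopeptides, were higher as well, though Tlr6 lost its call in 4 of the 6 fits with 1 array left out. None of these 3 was called without the arrays that hold squamous transcripts, Tlr4 having an adjusted p of 0.0697, Tlr6 0.0633 and Tlr2 0.241. Tlr7, the receptor of resiquimod, differed by -0.01 (adjusted p = 0.968).

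Of 37 remodelling and matrix genes 4 were called higher and 3 lower. Tnc, tenascin C, a matrix protein deposited in inflamed airways, read 7.45, 7.05 and 7.43 in A/J against 6.20, 6.26 and 6.19 in C57BL/6 (1.09, adjusted p = 0.000787). Timp3, a metalloprotease inhibitor (0.89), Ccn2, connective tissue growth factor (0.59), and Fn1 were higher, and Mmp3, stromelysin (-1.27), Mmp9 and Adam33 were lower. Ccn2 lost its call in 5 and Adam33 in 4 of the 6 fits with 1 array left out. In the fit without the squamous arrays Timp3 and Mmp3 were still called, and Tnc (0.83, adjusted p = 0.162) and Mmp9 (-0.95, adjusted p = 0.188) were not. Fn1 lost its call without A/J replicate 1 and without A/J replicate 3, its differences over the 6 fits running between 0.39 and 0.59.

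Among 33 leukotriene and prostaglandin genes 5 were called in each direction. Pla2g7, which degrades platelet-activating factor (0.99), and Pla2g1b, a secreted phospholipase (0.89), led the higher ones, and Ptgfr, the prostaglandin F receptor (-0.83), Alox12 (-0.72) and Lta4h, which makes leukotriene B4 (-0.52), the lower. Of 32 club cell and xenobiotic genes 2 were higher and 4 lower, with Bpifa1, an antimicrobial surface protein of the upper airway, at 9.35, 9.88 and 9.62 in A/J against 11.13, 10.81 and 11.25 in C57BL/6 (-1.45, adjusted p = 6.79e-05). Myh7, the slow myosin of heart and slow skeletal muscle, was higher by 2.14 and was so after PBS (2.39). The skeletal muscle list had no call in limma but a median of 1.35, which moves with the arrays that hold squamous transcripts and was 0.05 without them. Of 38 cell cycle genes Kif23 (-1.08) and Aurka (-0.35) were called lower, a share near that of all genes called lower (4.98%), and Aurka lost its call in 4 of the 6 fits with 1 array left out.

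Several of the largest differences were of similar size in all 3 treatments. Rpgrip1 read 4.68, 4.24 and 4.17 in A/J against 10.31, 10.42 and 10.43 in C57BL/6, a difference of -6.02 (64.9-fold lower, adjusted p = 5.71e-14). Its differences after PBS and resiquimod were -6.10 and -5.91. The 3 other Rpgrip1 probe sets were not called. Ang, angiogenin, a ribonuclease, read 3.36, 3.77 and 3.62 in A/J against 9.33, 9.39 and 9.49 in C57BL/6 (-5.82), and all 3 of its probe sets were lower. Sox11 was lower by -4.24, on all 6 of its probe sets, and Nxpe4 by -4.55.

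On the higher side, Gbp2b, an interferon-inducible guanylate-binding GTPase also known as Gbp1, read 8.17, 8.41 and 8.57 in A/J against 3.41, 3.91 and 3.48 in C57BL/6 (4.79, 27.6-fold). Tmem87a was higher by 3.74 and Cap1, an actin-binding protein, by 3.16. Glo1, glyoxalase 1, which lies in a duplication known in A/J, read 10.28, 10.28 and 10.30 in A/J against 8.36, 8.16 and 8.36 in C57BL/6 (1.99, 3.98-fold), on all 4 probe sets. The neighbouring 1700097N02Rik (1.96) and Dnah8 (0.32) were called higher with it, and Glp1r, the last gene of that run, was called lower. Over all 50 measured loci with a described allele in either strain, a list made up of such genes, 11 were called higher and 10 lower.

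Such differences may come from the RNA or from the probes, whose sequences were not compared with the A/J genome. Of the 1686 called genes 737 have 1 probe set. Among the 949 with more, another probe set was called in the same direction for 353 and in the opposite direction for 65, and for 542 no other was called. Called genes also lay near each other: 25.4% of 1682 placed ones stood next to a called gene in the order of measured genes, against 16.6% of genes that were not called, and 8 runs of at least 4 called genes were found.

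The test of the strain difference after ovalbumin against that after PBS called 8 genes in the positive (0.044%) and 3 in the negative direction (0.0165%). Besides Itln1 and Guca2a, the positive ones included Fxyd4, a regulator of ion transport, at 7.33, 6.97 and 7.42 in A/J against 5.27, 6.26 and 6.00 in C57BL/6 after ovalbumin (1.40), with a difference of -0.10 after PBS, 1.50 between them (adjusted p = 0.042). Capn9, a calpain of mucosal epithelium, read 5.83, 5.59 and 5.90 in A/J against 4.48, 4.59 and 4.63 in C57BL/6 (1.21), with -0.08 after PBS and 1.29 between them (adjusted p = 0.042). Fxyd4 and Capn9 sit close to that threshold and lost the call in 12 of 21 and 12 of 20 alternatives. Of the 11 genes, Itln1, Guca2a, Fxyd4, Capn9, Lrmda, Wfdc17, Nnt and Chil3 lost the call without the arrays that hold squamous transcripts, and Lrmda lost it in 5 of 21 alternatives in all.

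For 3 further members A/J lungs were below C57BL/6 lungs after PBS. Wfdc17, a protease inhibitor-like protein of activated macrophages, read 8.84, 8.56 and 8.95 in A/J against 8.01, 7.85 and 7.82 in C57BL/6 after ovalbumin (0.89), but 7.19, 7.03 and 7.02 in A/J against 7.61, 7.50 and 7.74 in C57BL/6 after PBS (-0.54), a shift of 1.43 (adjusted p = 0.00062). Chil3 was lower in A/J after PBS (-1.28), at 10.30, 10.07 and 9.75 against 11.24, 11.41 and 11.30 in C57BL/6, and did not differ by a called amount after ovalbumin, a shift of 1.18 (adjusted p = 0.0039). Ccl22, a Ccr4 ligand, behaved likewise, with -0.57 after PBS and 0.31 after ovalbumin (0.87 between them, adjusted p = 0.042).

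The remaining 4 genes set the C57BL/6 PBS mice apart. Nnt, the mitochondrial transhydrogenase, in which C57BL/6J mice are known to carry a deletion that other C57BL/6 substrains lack, read 8.51, 8.36 and 8.39 in A/J against 8.45, 8.35 and 8.40 in C57BL/6 after ovalbumin. After PBS it read 8.52, 8.39 and 8.48 in A/J against 7.04, 7.27 and 6.90 in C57BL/6, so that those 3 arrays alone were low. Wdfy1 and Efcab7 followed the same arrays. Lrmda read 6.12, 6.09 and 6.27 in A/J against 4.84, 4.23 and 4.76 in C57BL/6 after ovalbumin, but 5.73, 5.98 and 5.97 in A/J against 5.80, 5.87 and 5.76 in C57BL/6 after PBS, so that the C57BL/6 PBS lungs lay beside A/J. In comparisons with the PBS lungs, challenge and a difference between the C57BL/6 mice of the groups therefore cannot be told apart. The comparison of A/J with C57BL/6 after ovalbumin uses none of the PBS arrays except for the shared spread.

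**Figure D5:**
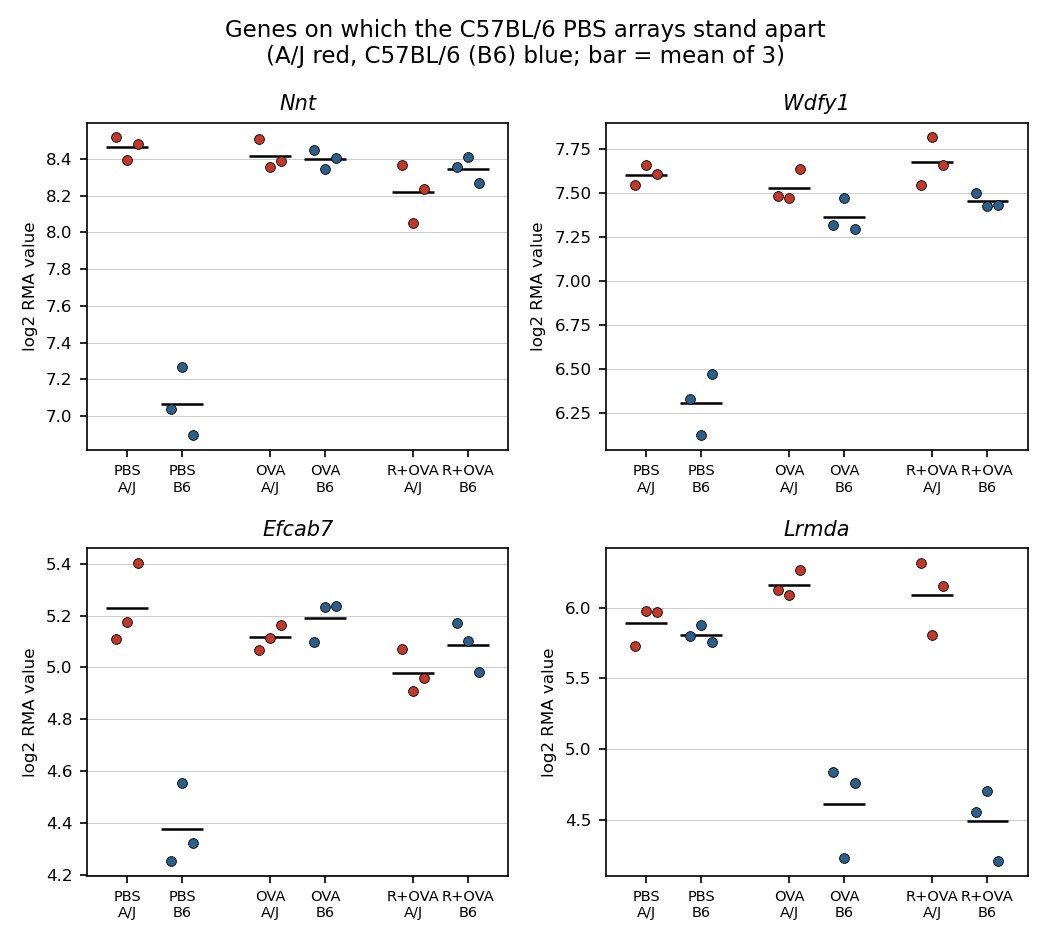
Log2 RMA values of Nnt, Wdfy1, Efcab7 and Lrmda in the 18 lungs, with A/J in red and C57BL/6 (B6) in blue, grouped as PBS, ovalbumin (OVA) and resiquimod with ovalbumin (R+OVA); each point is 1 array and each bar the mean of 3. For Nnt, Wdfy1 and Efcab7 the 3 C57BL/6 PBS arrays lie below the other 15 arrays, and for Lrmda they lie beside A/J while the other 6 C57BL/6 arrays are lower.

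Set against the resiquimod-treated lungs, the strain difference after ovalbumin alone was tested in the same way and 225 genes (1.24%) passed, 160 of them positive (0.879%) and 65 negative (0.357%). They include 10 of 38 cell cycle genes, 6 of 25 natural killer genes, 3 of 14 eosinophil, 3 of 33 macrophage, 3 of 37 remodelling and 3 of 24 endothelial genes, and 2 each of the goblet cell, T cell and B cell lists. The eosinophil genes were Siglecf (0.91 after ovalbumin against -0.58 after resiquimod and ovalbumin), Prg2 (0.89 against -0.09) and Epx (0.49 against -0.05), with adjusted p of 0.023, 0.039 and 0.042 for the differences between them. The natural killer genes included Klra7 and Klra8, whose differences between treatments were 4.30 and 4.20. This test passed 6 probe sets without the arrays that hold squamous transcripts, against 378 with all arrays.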

How the data were processed

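Whole-lung RNA of 18 mice was measured on Affymetrix arrays, 3 per group, which the labels call biological replicates. The deposited numbers are on a log2 scale and were produced by the authors through RMA (affy), per the submitters' processing notes; versions and scan dates are not given in the sources used here. They were used as deposited, without 64 control probe sets, and read between 2.00 and 14.03 (array medians 4.77 to 4.80). limma 3.58.1 in R 4.3.3 fitted 6 group means to all 18 arrays (12 residual degrees of freedom), two-sided, with Benjamini-Hochberg adjustment over 45037 probe sets. Of these, 34945 name 1 gene, 932 several and 9160 none in the platform annotation. For each of 18193 genes the probe set with the highest overall mean was used. Named genes are the 15 largest rises and falls without overlap, the 8 largest calls against PBS, up to 4 called members per list and a set of asthma and strain genes. Others were named after their values were seen. Members and the 38 lists (849 of 965 entries measured) were chosen with earlier results of these data known. Scripts were tested on simulated data. Alternatives were leaving out arrays, a replicate block, array weights, other normalizations, filters and fits.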

Additional observations from a re-analysis of the deposited data

Results flagged for a closer look

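For 11 genes the strain difference after ovalbumin differed from that after PBS by an interaction test in limma, and each is listed here by the ovalbumin difference minus the PBS difference. Itln1 (2.98), Guca2a (1.84), Fxyd4 (1.50) and Capn9 (1.29) were more strongly raised in A/J after ovalbumin. Wfdc17 (1.43), Chil3 (1.18) and Ccl22 (0.87) were lower in A/J after PBS and were not so after ovalbumin. Lrmda (1.46), Nnt (-1.38), Wdfy1 (-1.13) and Efcab7 (-0.93) separated the C57BL/6 PBS arrays from the other C57BL/6 arrays, and whether the C57BL/6 mice of the groups share a substrain was not tested. Of the 8 of these genes with the largest such differences, none passed the test without the arrays that hold squamous transcripts.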

How the results depend on the processing

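The 3984 probe sets called after ovalbumin became 2650 (1161 higher, 1489 lower) when only the 6 arrays compared were fitted, 1347 without the arrays that hold squamous transcripts, 617 when a difference of at least 1 log2 unit was also asked for, and 3184 to 3453 with 1 array left out. After PBS, 3845 calls became 1442 without the squamous arrays and 2941 to 3223 with 1 left out. After resiquimod, 6320 became 4029 and 4710 to 5920. The test against PBS called 21 probe sets, 3 without the squamous arrays and 16 to 23 with 1 array left out. The test against resiquimod called 378, but 87 on the compared arrays alone, 653 among probe sets with a mean of at least 5, 581 with a mean-variance trend, 6 without the squamous arrays and 138 to 636 with 1 left out. The 815 recurring genes became 268 without the squamous arrays and 719 to 777 with 1 left out. Fitting a subset of arrays leaves fewer residual degrees of freedom, so calls can be lost for that reason alone. With the squamous marker mean as a covariate and all arrays kept, 4193 probe sets were called after ovalbumin, 3717 after PBS and 6719 after resiquimod. In that fit the tests against PBS and against resiquimod called 22 and 461, and 830 genes recurred. Of the 119 called named genes 69 kept their call in every alternative, 49 lost it without the squamous arrays, and none changed sign. A replicate block gave 3958 calls after ovalbumin. Same-numbered A/J and C57BL/6 arrays deviated together with correlations of 0.49, 0.40 and -0.09, and A/J replicate 2 with C57BL/6 replicate 3 with 0.41. Squamous transcripts, which both arrays numbered 1 hold, also enter these correlations. Whether the replicate numbers mark a shared batch was not tested. Genes near the bottom of the array's range, such as Prg2, Epx and the Ly49 receptors, are measured least precisely in size. Scan date and extraction batch were not analysed here.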

Other observations

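Genes of the vessel wall and the alveolus differed by small amounts after ovalbumin. Of 24 endothelial genes 2 were called higher and 3 lower in A/J. Car4 (0.44), counted among the macrophage genes too, was the higher one with the largest difference. Vwf, the von Willebrand factor, read 10.29, 10.41 and 10.53 in A/J against 10.83, 11.19 and 11.10 in C57BL/6 (-0.63, adjusted p = 0.000217) and was lower in A/J after PBS too (-0.87). Ackr1, the chemokine-binding Duffy receptor of venules, read 5.15, 4.97 and 5.32 in A/J against 5.60, 5.61 and 5.75 in C57BL/6 (-0.50, adjusted p = 0.00587), and its difference after PBS was not called (-0.26). Sele, the adhesion molecule E-selectin, was lower by -0.56, a call lost in 4 of the 6 fits with 1 array left out. Of 21 alveolar and surfactant genes, Abca3, the lipid transporter of lamellar bodies, was called higher (0.30). Abca3 lost that call in 2 of the 6 fits with 1 array left out. Hopx, a marker of alveolar type 1 cells, and Lpcat1, which makes surfactant lipid, were called lower (-0.46 and -0.29).

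Stress and immediate early genes gave 3 calls of 20, all higher in A/J. Sgk1, a kinase induced by glucocorticoids, read 9.69, 10.06 and 10.08 in A/J against 9.19, 9.23 and 8.99 in C57BL/6 (0.81, adjusted p = 0.000757), with 0.60 after PBS and 0.94 after resiquimod. Egr2 (0.60) and Junb (0.58), early response transcription factors, were the others, and Junb lost its call in 4 of the 6 fits with 1 array left out. Of 20 dendritic cell genes only Cd209a, the mouse DC-SIGN, was called, a share near that of all genes called higher (4.29%). It was higher by 0.88, at 7.37, 7.33 and 7.41 in A/J against 6.37, 6.45 and 6.68 in C57BL/6. The call was lost without C57BL/6 replicate 1.

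Known A/J alleles were not all visible as lower transcript. Dysf, in which A/J carries a retrotransposon insertion, read 5.93, 5.74 and 6.04 in A/J against 5.22, 5.27 and 5.17 in C57BL/6, higher by 0.68 (adjusted p = 0.00509). Il3ra, in which A/J carries a splicing defect, read 4.99, 4.74 and 4.47 in A/J against 4.95, 5.42 and 4.99 in C57BL/6 and was not called (-0.38, adjusted p = 0.164). Hal, the histidine-degrading enzyme histidase, was among the largest rises, at 6.56, 5.31 and 6.32 in A/J against 3.47, 3.58 and 3.37 in C57BL/6 (2.59, adjusted p = 2.74e-06), and recurred after PBS (1.88). A2ml1, an alpha-2-macroglobulin-like protease inhibitor, was lower by -2.59 after ovalbumin and by -2.08 after PBS, but by -0.53 after resiquimod, and the difference between the ovalbumin and the resiquimod values was -2.06 (adjusted p = 0.005).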
